A study of Mus musculus with 36 samples.

Results

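Serotonergic neuron genes are described here as 8 genes: Tph2, Slc6a4, Fev, Gata2, Gata3, Lmx1b, Maob and Gch1. They are the rows of the deposited count files whose mouse Ensembl identifier carries one of these symbols in GENCODE M21, and they are 8 of the 38924 genes counted in each library. The libraries were RNA-seq of whole tissue, so a lower level can come from fewer cells of a type or from less RNA per cell, and the data cannot tell these apart. The series compared brainstem, hypothalamus and cortex of mice on the strain given as C57BL/6, with 3 libraries for each of 4 genotypes in each tissue, 36 libraries in all. The ataxin-3 transgenic mice express ataxin-3 in the neurons that make hypocretin (also called orexin), which kills those cells, and the Hcrt knockout mice keep the cells and lack the peptide's gene. Each model has wild types of its own line, called here the ataxin-3-line and the Hcrt-line wild types. The transgene is driven from the hypocretin promoter. The labels give no age or sex. Whether the 3 libraries of each group came from different mice is not stated in them, and p-values here measure only the spread between libraries, which may be technical.

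Serotonin neurons have their cell bodies in the raphe nuclei of the midbrain and hindbrain and send axons to nearly the whole forebrain. They make serotonin from tryptophan with the enzyme Tph2 and the cofactor tetrahydrobiopterin, load it into vesicles, and take it back up with the transporter Slc6a4. The transcription factors Gata2, Gata3, Lmx1b and Fev act during their development, and Lmx1b and Fev maintain the transmitter genes in the adult. Hypocretin neurons of the lateral hypothalamus project to the raphe and excite it. Of the 8 genes, Tph2, Slc6a4 and Fev are close to specific for these neurons within the brain. Gata2 and Gata3 are also used by GABA neurons of the brainstem, and Lmx1b by other hindbrain and hypothalamic neurons. Maob is also used by astrocytes and histamine neurons, and Gch1 by catecholamine neurons.

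The sequence just upstream of 3 of the genes is shown because Gata2, Gata3 and Lmx1b, which are members, act on such genes. The windows are the 250 bases before the RefSeq start in GRCm38.p6, written 5′ to 3′ on the gene's strand. Tph2 is on the minus strand (chr10:115185023-115185272), Fev on the minus strand (chr1:74885409-74885658) and Slc6a4 on the plus strand (chr11:76998347-76998596). Capitals mark AGATAA, a motif of GATA factors (TTATCT on the other strand), and TAATTA, a core shared by many homeodomain factors, which reads the same on both strands; these motifs do not overlap in the windows shown.
Tph2: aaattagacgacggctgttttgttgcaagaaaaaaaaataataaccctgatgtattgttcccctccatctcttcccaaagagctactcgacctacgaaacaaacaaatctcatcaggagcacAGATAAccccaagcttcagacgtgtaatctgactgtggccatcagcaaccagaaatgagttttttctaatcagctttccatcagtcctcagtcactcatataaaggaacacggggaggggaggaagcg
Fev: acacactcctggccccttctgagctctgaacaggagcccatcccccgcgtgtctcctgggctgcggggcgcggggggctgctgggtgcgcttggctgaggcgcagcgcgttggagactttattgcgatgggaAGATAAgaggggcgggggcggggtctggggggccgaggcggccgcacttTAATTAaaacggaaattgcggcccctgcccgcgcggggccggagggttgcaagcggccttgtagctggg
Slc6a4: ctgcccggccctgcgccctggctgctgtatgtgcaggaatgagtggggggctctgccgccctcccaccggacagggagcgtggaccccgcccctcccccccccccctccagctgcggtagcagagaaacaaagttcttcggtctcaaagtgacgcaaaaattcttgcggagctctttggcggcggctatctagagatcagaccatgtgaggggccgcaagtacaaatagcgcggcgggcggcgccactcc
The Tph2 window held AGATAA once, its first base 128 bases before the start. The Fev window held AGATAA at 118 bases and TAATTA at 69 bases before the start. The Slc6a4 window held neither motif, and neither did the windows of Gata2 (2 windows), Gata3, Lmx1b or Gch1. Among all 32851 windows of this length in the RefSeq table, 9.99% held AGATAA and 4.84% held TAATTA, so a match in 1 window is common. Windows were found for 7 of the 8 members, and Maob had none.

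Total counts on genes ran from 21915540 to 47057537 per library, and a count of 0 allowed up to 0.0604 to 0.162 CPM (counts scaled to the library's total) depending on the library; this limit covers counting error only. CPM values use scaling factors computed over all 36 libraries. The ataxin-3-line wild-type brainstem replicate 2 had the fewest counts and the lowest factor, 0.846. In hypothalamus, Hcrt stood at 0.996 to 2.46 CPM in the 6 libraries of both models and at 51.4 to 196 CPM in the 6 wild types, as the labels state. Hoxb3, a hindbrain marker, stood at 12.6 to 17.5 CPM in brainstem, with 0 to 2 counts per hypothalamus library and 0 in every cortex library, where the limit just given applies. Some libraries held transcripts typical of other tissues, and how these came in was not tested. In hypothalamus, 3 libraries held more than 1000 CPM of the pituitary gene Gh (replicates 1 and 3 of the ataxin-3-line wild type and replicate 3 of the Hcrt-line wild type), and the transgenic replicate 1 held 725 CPM of the nasal gene Bpifa1. Also in hypothalamus, 4 markers of cortex neurons summed to 7.86, 100 and 130 CPM, in order of size, in the Hcrt-line wild type. They summed to 9.2 to 12.3 CPM in the knockout, and their part in that comparison was not tested. In brainstem, the cerebellar gene Gabra6 split the libraries into 6 at 80.0 to 140 CPM and 6 at 8.77 to 22.5 CPM.

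All of the members were higher in wild-type brainstem than in wild-type cortex, and Tph2, Slc6a4, Fev and Gata3 were at 1.88 CPM or below in every library of the other tissues. Lmx1b and Gata2 were also well above 0 in hypothalamus, and Maob and Gch1 were highest there. In edgeR's quasi-likelihood test over all 36 libraries, with Benjamini-Hochberg adjustment over 17744 genes, 8 of 8 members passed an adjusted p of 0.05 between wild-type brainstem and wild-type cortex, all of them higher in brainstem; 78.6% of all genes tested passed in this comparison, and 39.8% were higher. Between brainstem and hypothalamus 8 of 8 passed, 6 higher and 2 lower in brainstem, beside 68.2% of all genes, 32.0% higher and 36.2% lower. Between hypothalamus and cortex 6 of 8 passed, 5 higher and 1 lower in hypothalamus, beside 75.9% of all genes, 38.7% higher and 37.2% lower. With so many genes passing between tissues, the sizes of the differences say more than the counts: the members' median log2 difference was 1.56 for brainstem over hypothalamus, 4.55 for brainstem over cortex and 1.69 for hypothalamus over cortex, beside -0.03, 0.02 and 0.03 for all genes.

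**Figure D1:**
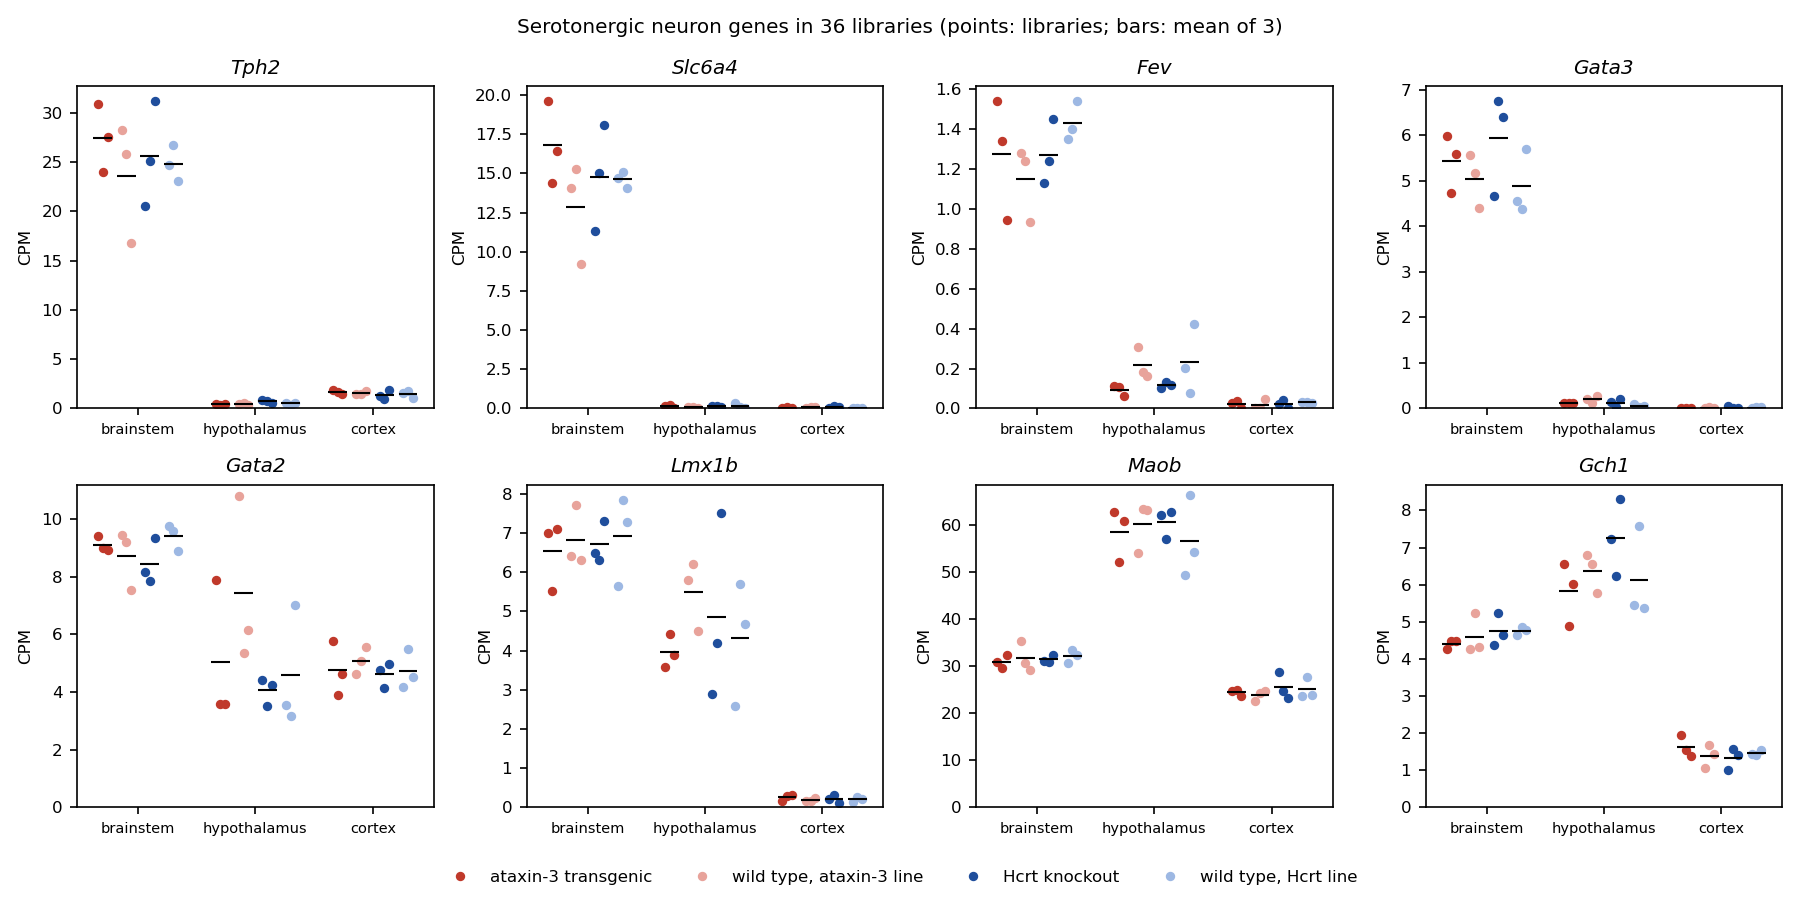
Level of each of the 8 genes (vertical axes, CPM, each from 0) in brainstem, hypothalamus and cortex. Points are libraries coloured by genotype and bars are means of 3. Tph2, Slc6a4, Fev and Gata3 stand high in brainstem alone, Maob and Gch1 are highest in hypothalamus, and the 4 genotypes are mixed within brainstem.

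Tph2, the enzyme that sets the rate of serotonin synthesis in neurons, stood at 24.3 ± 4.06 CPM (SD, n = 6) in wild-type brainstem, 1.51 ± 0.237 CPM in wild-type cortex and 0.483 ± 0.0996 CPM in wild-type hypothalamus. The 12 brainstem libraries ran from 16.8 to 31.2 CPM, the 12 cortex libraries from 0.924 to 1.88 CPM and the 12 hypothalamus libraries from 0.358 to 0.806 CPM. The 3 tissues therefore did not overlap, and cortex, which holds no serotonin cell bodies by textbook anatomy, stood above hypothalamus in every library. The log2 difference was 5.64 (SE 0.17) between brainstem and hypothalamus, 4.01 (SE 0.14) between brainstem and cortex, and -1.63 (SE 0.19, adjusted p = 7.04e-09) between hypothalamus and cortex.

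Slc6a4, the serotonin transporter on the cell surface, had 283 to 677 counts in every brainstem library, 1 to 14 in hypothalamus and 0 to 5 in cortex. Its level in wild-type brainstem was 13.7 ± 2.28 CPM (SD, n = 6). Pooled over the 6 wild types of each tissue, 2541 brainstem counts stood against 25 in hypothalamus and 14 in cortex, ratios of 118 (95% interval 79.6 to 182) and 210 (125 to 385) after scaling; these intervals cover counting error only. Hypothalamus and cortex did not differ detectably at this depth (log2 difference 0.85, 95% interval -0.51 to 2.21, adjusted p = 0.247).

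Fev, also called Pet-1, a factor specific to serotonin neurons, had the lowest CPM of the members in brainstem, 0.937 to 1.54, on the scale that does not account for gene length. It had 3 to 17 counts per hypothalamus library and 0 to 2 per cortex library. Brainstem exceeded hypothalamus by 2.49 (SE 0.27) and cortex by 5.60 (SE 0.38) on the log2 scale, beside 7.05 (SE 0.29) and 7.90 (SE 0.32) for Slc6a4; the difference between the genes was not tested. The 4 hypothalamus libraries with pituitary or nasal transcripts had a median of 0.237 CPM of Fev and the other 8 a median of 0.113 CPM, and the part of that tissue in the Fev level was not tested. The 2 highest Fev counts in hypothalamus, 17 and 9, were both in libraries with Gh above 1000 CPM.

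In cortex the ratio of Tph2 to the other serotonin genes was not that of brainstem. Per kilobase of exon, Tph2 stood at 8.43 CPM per kb and Slc6a4 at 3.03 CPM per kb in wild-type brainstem, and at 0.523 and 0.0133 CPM per kb in wild-type cortex. Summed over the 12 libraries of a tissue and divided by length, Tph2 was 2.70 times Slc6a4 in brainstem, 6.92 times in hypothalamus and 39.7 times in cortex. In the 12 cortex libraries together there were 606 Tph2 counts, 24 Slc6a4 counts and 9 Fev counts. In the brainstem libraries the count ratio of Tph2 to Slc6a4 stayed between 1.57 and 2.01; in the cortex libraries with any Slc6a4 count it ran from 7.0 to 56.0. Tph1, the enzyme of pineal gland and gut, was near the limit of detection, with 3 to 14 counts per cortex library and 0 to 9 in the other libraries.

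The factors that set up the serotonin fate differed more from each other. Gata3 followed Slc6a4: it had 96 to 231 counts in brainstem, 1 to 10 in hypothalamus and 0 to 2 in cortex, and its wild-type brainstem level was 4.97 ± 0.593 CPM (SD, n = 6). Over the wild types its 922 brainstem counts stood against 3 in cortex, a ratio of 356 with a counting interval of 121 to 1730. Gata3 shares exon sequence with the antisense gene Gm13256 and, on its own strand, with 9230102O04Rik; libraries were made with a stranded kit but the strand setting of the counting is not given in the sources used here, so its counts are uncertain.

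Gata2, which acts before Gata3 in hindbrain progenitors, was present in all tissues. It stood at 7.53 to 9.75 CPM in brainstem and 3.89 to 5.78 CPM in cortex, with no overlap. In hypothalamus it ran from 3.16 to 10.8 CPM, and its 4 highest values were in the 4 libraries holding pituitary or nasal transcripts, at 6.14 to 10.8 CPM against 3.16 to 5.35 CPM in the other 8. Brainstem was higher than hypothalamus by 0.63 (SE 0.19, adjusted p = 0.00375) on the log2 scale with every library and by 1.09 (adjusted p = 7.54e-09) without those 4. The difference between hypothalamus and cortex, 0.25 (adjusted p = 0.232) with every library, was -0.21 (adjusted p = 0.122) without them. The pituitary marker list was high in only 3 of these 4 libraries. Its 8 genes reached 14000 to 26200 CPM in those 3 and summed to 9.37 to 70.9 CPM in the 9 libraries with low Gh. The transgenic replicate 1, with nasal transcripts, was among those 9, at 22.1 CPM of Gh and 7.89 CPM of Gata2.

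Lmx1b, a homeodomain factor that serotonin neurons need through life, was almost as high in hypothalamus as in brainstem. Brainstem libraries held 5.51 to 7.84 CPM and hypothalamus libraries 2.59 to 7.50 CPM, so these overlapped, while cortex held 0.117 to 0.318 CPM. The wild-type difference between brainstem and hypothalamus was 0.49 (SE 0.17, adjusted p = 0.0128) on the log2 scale. That call was lost without the 4 libraries holding pituitary or nasal transcripts (0.43, adjusted p = 0.0955) and without replicate 1 of the Hcrt-line wild-type hypothalamus (0.36, adjusted p = 0.0516). In the same 12 hypothalamus libraries Slc6a4 had 1 to 14 counts and Gata3 1 to 10.

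The genes most like Gata2 and Lmx1b within hypothalamus were looked up after their values had been seen. Likeness was Pearson's r of log2 CPM over the 12 libraries, some of which hold the transcripts of other tissues described above. The nearest to Gata2 was Pitx1, a factor of the pituitary (r = 0.96), at 5.70 to 13.7 CPM in the 4 libraries with pituitary or nasal transcripts and 0.334 to 1.71 CPM in the other 8. Lmx1b came with a different set: Ttc6 (r = 0.92), Lhx1 (0.92), C130021I20Rik (0.91), Gm26691, Mfsd6, Lmx1a (0.89), Adamts2, Chrna6 (0.89), Rxfp1 and Slc17a6 (0.87). Lmx1a, the closest relative of Lmx1b, ran from 1.40 to 5.32 CPM, and Slc17a6, the vesicular glutamate transporter of subcortical neurons, from 260 to 389 CPM. The Hcrt-line wild-type replicate 1, without which the Lmx1b call was lost, was the lowest of the 12 for Lmx1b (2.59 CPM), Lmx1a (1.40 CPM) and Slc17a6 (260 CPM), and it held 118 CPM of the cortical gene Slc17a7 against 0.565 to 87.7 CPM in the other 11.

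**Figure D2:**
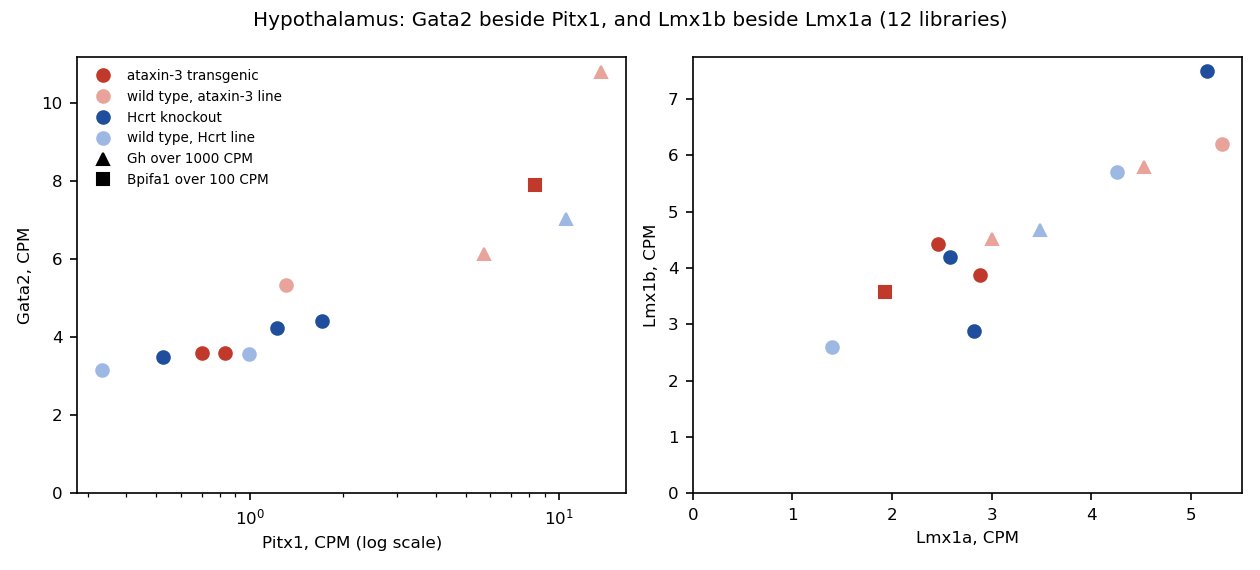
Gata2 beside Pitx1 (left, Pitx1 on a log scale) and Lmx1b beside Lmx1a (right) in the 12 hypothalamus libraries, all in CPM, coloured by genotype; triangles mark libraries with Gh above 1000 CPM and the square the one with Bpifa1 above 100 CPM. The 4 marked libraries hold the 4 highest Gata2 values, 6.14 to 10.8 CPM, and do not stand apart for Lmx1b.

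Maob and Gch1, the members used outside serotonin neurons, had a different order of tissues. Maob, the mitochondrial enzyme that breaks down monoamines, stood at 49.5 to 66.4 CPM in hypothalamus, 29.3 to 35.4 CPM in brainstem and 22.7 to 28.8 CPM in cortex, with no overlap between tissues. Gch1, the first enzyme of tetrahydrobiopterin synthesis, stood at 4.89 to 8.32 CPM in hypothalamus, 4.26 to 5.24 CPM in brainstem and 1.01 to 1.96 CPM in cortex. Brainstem was below hypothalamus by 0.87 (SE 0.07) for Maob and by 0.42 (SE 0.11, adjusted p = 0.0013) for Gch1 on the log2 scale. Hdc, the defining enzyme of histamine neurons, ran from 51.6 to 83.0 CPM in the hypothalamus libraries, against 2.33 to 3.73 CPM in brainstem and 0.338 to 1.17 CPM in cortex. Of the other cell types, the 6 astrocyte markers summed to 2240 to 2710 CPM in hypothalamus, 3200 to 3830 CPM in brainstem and 1790 to 1980 CPM in cortex, an order unlike that of Maob, and the 4 ependymal markers to 47.5 to 83.7, 30.2 to 41.5 and 7.01 to 9.90 CPM, the order of Maob. The part of these cells in the Maob level was not tested.

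Per kilobase, the order of the members in wild-type brainstem was Maob (11.5 CPM per kb), Tph2 (8.43), Slc6a4 (3.03), Gata2 (1.68), Lmx1b (1.41), Gata3 (1.25), Fev (0.799) and Gch1 (0.749). The ranges over the 6 wild types overlapped between Gata2, Lmx1b and Gata3 and between Fev and Gch1, and did not overlap between Tph2, at 5.84 to 9.84, and Slc6a4, at 2.03 to 3.37 CPM per kb.

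The wider serotonin pathway was taken as 24 further genes. Between wild-type brainstem and cortex 21 of the 22 tested passed, 17 of them higher in brainstem and 4 lower, beside 78.6% of all genes, 39.8% higher and 38.7% lower. Between brainstem and hypothalamus 16 of 22 passed, 8 in each direction, beside 68.2% of all genes, 32.0% higher and 36.2% lower, so this count was near that of all genes. Slc18a2, the vesicular monoamine transporter, serves all monoamine neurons. Ddc, which makes serotonin and dopamine from their precursors, serves serotonin and catecholamine neurons. Both were higher in hypothalamus. Slc18a2 stood at 27.9 ± 6.47 CPM in wild-type brainstem, 57.5 ± 13.2 CPM in hypothalamus and 0.323 ± 0.240 CPM in cortex (SD, n = 6), and Ddc at 24.7 ± 1.78, 57.5 ± 7.70 and 5.28 ± 0.359 CPM. Maoa, the other monoamine oxidase, was at 73.9 ± 1.38 CPM in wild-type brainstem and 37.8 ± 2.69 CPM in cortex. Htr1a is the inhibitory autoreceptor of serotonin neurons, and many target neurons also carry it. Its level was 23.3 ± 1.78 CPM in brainstem, 20.3 ± 0.495 CPM in hypothalamus and 18.5 ± 1.44 CPM in cortex.

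Whether loss of hypocretin cells or of the peptide went with a change in these genes was asked within each tissue, model against its own wild type. No member passed in any of the 6 comparisons. In brainstem, where all 8 members were tested, edgeR called 0 members in the transgenic (0.00606% of all genes) and 0 in the knockout (0.0728% of all genes). In hypothalamus and cortex Slc6a4, Fev and Gata3 fell under the count filter, so 5 of 8 were tested, and 0 passed; of all genes 0.00597% and 0.0119% passed in the hypothalamus of the transgenic and the knockout, and 0% and 0.0789% in the cortex. At an unadjusted p of 0.05 the count was also 0 in each of the 6, where 8.35% and 3.24% of all genes in brainstem, 4.16% and 3.89% in hypothalamus and 5.09% and 3.3% in cortex were under it in the transgenic and the knockout. The ranges of the 3 model and 3 wild-type libraries overlapped for every member in brainstem and for every tested member in cortex, where 12.4% and 9.68% of all genes in brainstem and 9.01% and 10.7% in cortex did not overlap. DESeq2 and limma-voom with quality weights called 0 members in each.

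In brainstem, Tph2 stood at 30.9, 24.0 and 27.6 CPM in the transgenic and at 28.3, 25.8 and 16.8 CPM in its wild type. The knockout libraries held 20.6, 25.1 and 31.2 CPM and those of its wild type 24.7, 26.8 and 23.1 CPM. The groups overlapped in both models, and the widest spread within a group, from 16.8 to 28.3 CPM, was in a wild type. The log2 difference was 0.23 (95% interval -0.21 to 0.67, adjusted p = 0.80) in the transgenic and 0.04 (-0.39 to 0.48) in the knockout, so a 2-fold difference lay outside both intervals. Leaving out 1 library moved the transgenic value to 0.03 (without the ataxin-3-line wild-type replicate 3), 0.14 (without the transgenic replicate 1) or 0.39 (without the wild-type replicate 1).

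Slc6a4 had the smallest p of the members in brainstem. It stood at 19.6, 14.4 and 16.4 CPM in the transgenic against 14.1, 15.3 and 9.20 CPM in its wild type, and at 11.3, 15.0 and 18.1 CPM in the knockout against 14.7, 15.1 and 14.1 CPM. The transgenic was higher by 0.41 (95% interval -0.04 to 0.85, unadjusted p = 0.0683, adjusted p = 0.615), with 1 of its libraries inside the wild type's range. Without the ataxin-3-line wild-type replicate 3, the lowest library at 9.20 CPM, the difference was 0.20 (unadjusted p = 0.249). The knockout difference was 0.02 (-0.42 to 0.45). For Slc6a4 and Tph2 alike, the highest library of each model was the transgenic replicate 1 or the knockout replicate 3. Both were high in the dopamine transporter Slc6a3, as was the knockout replicate 2, at 15.0 CPM of Slc6a4. No wild-type brainstem library was high in Slc6a3 (values below), and the part of this was not tested. With the Gabra6 split as a term in the fit, the transgenic difference was 0.41 with an unadjusted p of 0.0109 and an adjusted p of 0.32, which again did not pass.

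Levels of the serotonin genes were set beside the cerebellar split, whose part in them was tested only as that term. Tph2 had a median of 24.4 CPM in the 6 brainstem libraries with high Gabra6 and 28.0 CPM in the 6 with low Gabra6, and Slc6a4 14.5 and 15.8 CPM. The 3 cerebellar markers summed to 35.1 to 429 CPM over the brainstem libraries. High-Gabra6 libraries numbered 1 of 3 in the transgenic and in its wild type, and 2 of 3 in the knockout and in its wild type, so each model was matched to its wild type in this. Among low-Gabra6 libraries alone the transgenic was above its wild type by 0.11 for Tph2 and 0.29 for Slc6a4 in log2 CPM (2 libraries against 2, no test), and among high-Gabra6 libraries by 0.51 and 0.64 (1 against 1). The knockout differed from its wild type by -0.18 and -0.19 among high-Gabra6 libraries (2 against 2) and by 0.43 and 0.36 among low ones (1 against 1); a single pair of libraries has no measure of spread.

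The other brainstem members did not pass either. The log2 difference of Fev was 0.16 (95% interval -0.29 to 0.61) in the transgenic and -0.17 (-0.59 to 0.26) in the knockout. Gata3 had the largest knockout value, 0.28 (-0.03 to 0.59, unadjusted p = 0.073), with 4.67, 6.75 and 6.40 CPM against 4.56, 4.39 and 5.70 CPM in its wild type, which overlap. That value was 0.18 without the knockout replicate 2 and 0.42 without the knockout replicate 1. Gata2, Lmx1b, Maob and Gch1 lay between -0.15 and 0.07 in both models, and both intervals of Maob lay between -0.18 and 0.12.

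**Figure D3:**
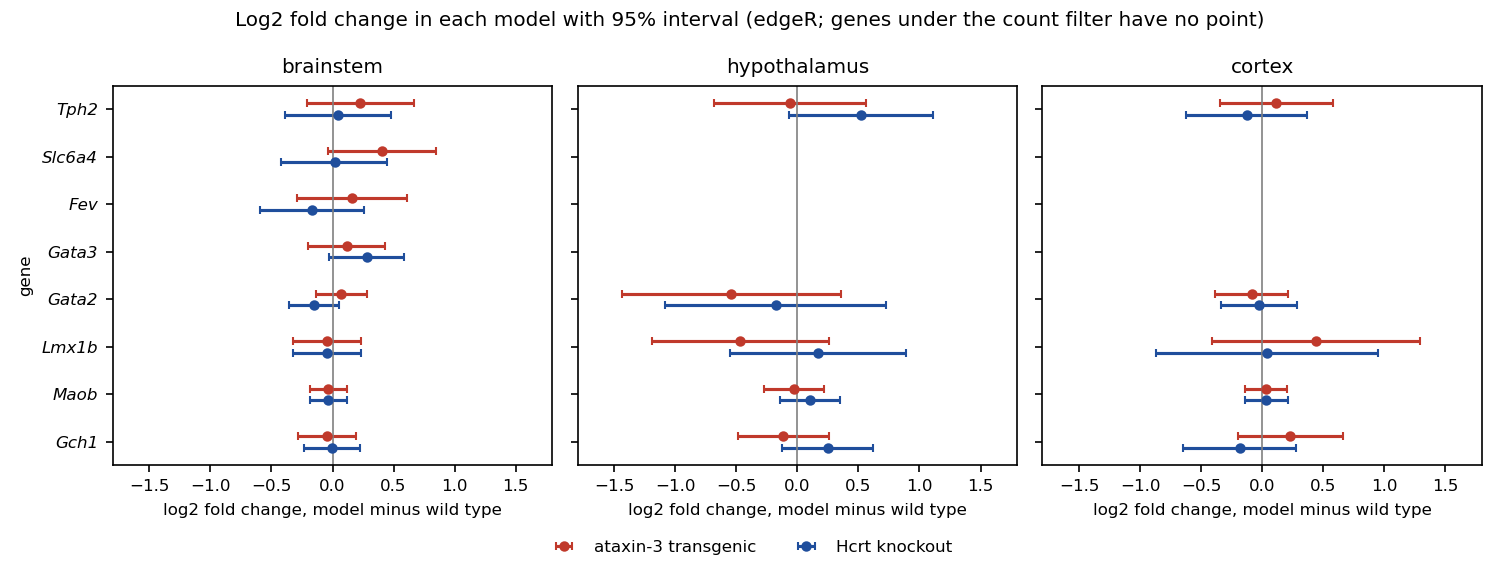
Log2 fold change of each gene (horizontal axes) in the ataxin-3 transgenic and the Hcrt knockout, each against its own wild type, with 95% intervals from edgeR, in 3 tissues. Every interval reaches 0, and those of hypothalamus are the widest for Gata2. Slc6a4, Fev and Gata3 have points in brainstem only because their counts were under the filter elsewhere.

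In hypothalamus the 2 tested members whose groups did not overlap were Tph2 in the knockout and Lmx1b in the transgenic. Of the untested members, Fev and Gata3 were lower in the transgenic with no overlap in CPM, and Slc6a4 overlapped. Fev had 3 to 5 counts per library in the transgenic against 6 to 9 in its wild type, and Gata3 3 to 6 against 4 to 10. Tph2 stood at 0.806, 0.790 and 0.586 CPM in the knockout against 0.560, 0.385 and 0.570 CPM in its wild type, which rests on 20 to 30 and 15 to 23 counts per library. Its log2 difference was 0.52 (95% interval -0.07 to 1.11, unadjusted p = 0.0772, adjusted p = 0.806). Lmx1b stood at 3.57, 4.42 and 3.88 CPM in the transgenic against 5.80, 6.20 and 4.51 CPM, a log2 difference of -0.47 (-1.19 to 0.25, adjusted p = 1.0). Of all genes tested, 7.12% had no overlap in the knockout comparison and 9.61% in the transgenic one. The count of 1 of 5 tested members in each is a small one to set beside these shares. In the other line, Lmx1b ran at 2.89, 4.19 and 7.50 CPM in the knockout and 2.59, 5.70 and 4.68 CPM in its wild type, a span wider than the transgenic difference.

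Gata2 in hypothalamus stood at 7.89, 3.59 and 3.60 CPM in the transgenic and 10.8, 5.35 and 6.14 CPM in its wild type, a log2 difference of -0.54 (95% interval -1.44 to 0.35, adjusted p = 1.0); the first of the transgenic libraries is the one with nasal transcripts and the first and last of the wild types those with pituitary transcripts. Fev, not tested there, had 5, 3 and 3 counts in the transgenic and 9, 6 and 6 in its wild type, and 3, 5 and 4 in the knockout against 8, 3 and 17. In cortex, Tph2 stood at 1.88, 1.65 and 1.47 CPM in the transgenic against 1.42, 1.46 and 1.73 CPM, and at 1.25, 0.924 and 1.83 CPM in the knockout against 1.60, 1.72 and 1.10 CPM. Both pairs overlapped, with log2 differences of 0.12 (-0.35 to 0.58) and -0.13 (-0.62 to 0.37). The log2 differences of Maob and Gch1 ran from -0.19 to 0.25 over the 4 comparisons of hypothalamus and cortex.

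Tests of the difference between the effects gave no call either. The transgenic effect minus the knockout effect within a tissue, and the effect of a model in one tissue minus that in another, called 0 members in 9 comparisons by edgeR, and also by DESeq2 and limma-voom. Of all genes, 0.0243% were called between the effects in cortex, 0.00564% between the knockout effects in brainstem and hypothalamus and in hypothalamus and cortex, and 0% in the other 6. At an unadjusted p of 0.05 Fev was the only member in any of the 9, its transgenic effect being higher by 1.36 in brainstem than in hypothalamus (edgeR, unadjusted p = 0.0315, adjusted p = 0.685). Its hypothalamus counts were 3 to 5 per library in the transgenic and 6 to 9 in its wild type. Replicates 1 and 3 of that wild type held Gh above 1000 CPM. All genes under that p were 6.92% in the comparison of Fev, 4.75%, 2.26% and 3.13% between models in brainstem, hypothalamus and cortex, and 5.62%, 2.87%, 1.55%, 4.73% and 4.07% in the other comparisons between tissues. The wild types of the 2 lines did not differ in any tested member after adjustment, with the smallest adjusted p at 0.458 (edgeR). Nor was any other gene called between them: 0 of 16493 in brainstem, 0 of 16738 in hypothalamus and 0 of 16479 in cortex.

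None of the 24 pathway genes passed in any model comparison; 21 were tested in brainstem and in hypothalamus and 19 in cortex. Ddc had a positive log2 difference in all 6: in the transgenic 0.35 in brainstem, 0.09 in hypothalamus and 0.21 in cortex, and in the knockout 0.27, 0.38 and 0.29. Its unadjusted p (edgeR) was under 0.05 in 5 of these, from 0.00958 to 0.04998, and its adjusted p ran from 0.542 to 1.0. Of all genes in the transgenic, 8.35% in brainstem, 4.16% in hypothalamus and 5.09% in cortex had an unadjusted p under 0.05. In the knockout these shares were 3.24%, 3.89% and 3.3%. In cortex, Ddc stood at 6.20, 5.73 and 6.33 CPM in the transgenic against 5.65, 5.41 and 4.82 CPM, and at 6.44, 6.99 and 5.98 CPM in the knockout against 5.16, 4.98 and 5.69 CPM, with no overlap in either, beside 9.01% and 10.7% of all genes; these cortex values were picked after they had been seen. Ddc also serves catecholamine neurons, whose 5 markers summed in brainstem to 23.4 to 56.8 CPM in the knockout against 24.5 to 30.8 CPM in its wild type, and to 21.8 to 38.6 CPM in the transgenic against 22.5 to 34.5 CPM. In hypothalamus the sums were 41.4 to 109 against 34.8 to 62.2 CPM and 32.3 to 40.3 against 34.9 to 73.8 CPM, and in cortex 2.21 to 4.35 against 2.42 to 13.8 CPM and 2.13 to 3.44 against 1.74 to 2.81 CPM. The dopamine transporter Slc6a3 stood at 8.60 CPM in the brainstem of the transgenic replicate 1 and at 13.3 and 11.9 CPM in the knockout replicates 2 and 3, where Ddc was at 34.2, 30.0 and 35.7 CPM, and at 0.0878 to 2.97 CPM in the other 9 brainstem libraries. The part of catecholamine neurons in the Ddc values was not tested. The other pathway genes with the smallest p were Aldh2 (0.18) and Pts (0.16) in the transgenic brainstem, Pts (-0.14) and Insm1 (-0.31) in the knockout brainstem, Gchfr (2.32), Htr1b (0.18) and Aldh2 (0.42) in the transgenic hypothalamus, and Pts (0.23) and Nkx2-2 (0.25) in the knockout hypothalamus, all in log2 and none passing. Gchfr, which binds the Gch1 enzyme and regulates it, was high in 1 library, the transgenic replicate 1 with nasal transcripts, at 4.57 CPM against 0.507 and 0.684 CPM in the other two.

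Across the 12 brainstem libraries Tph2, Slc6a4 and the vesicular transporter Slc18a2 varied together. Pearson's r of log2 CPM was 0.95 between Tph2 and Slc6a4 and 0.93 between Tph2 and Slc18a2. It is given as a description over libraries that share the Gabra6 split and depth and differ in Slc6a3. It was 0.80 between Tph2 and Ddc, 0.55 between Tph2 and the low-count Fev, and 0.12 between Tph2 and Gch1. The library with the least Tph2, the ataxin-3-line wild-type replicate 3 at 16.8 CPM, also had the least Slc6a4 (9.20 CPM) and the least Slc18a2 (18.3 CPM), and the highest Gabra6 of the 12. The knockout replicate 3, with the most Tph2 at 31.2 CPM, had the most Slc18a2, at 35.9 CPM.

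**Figure D4:**
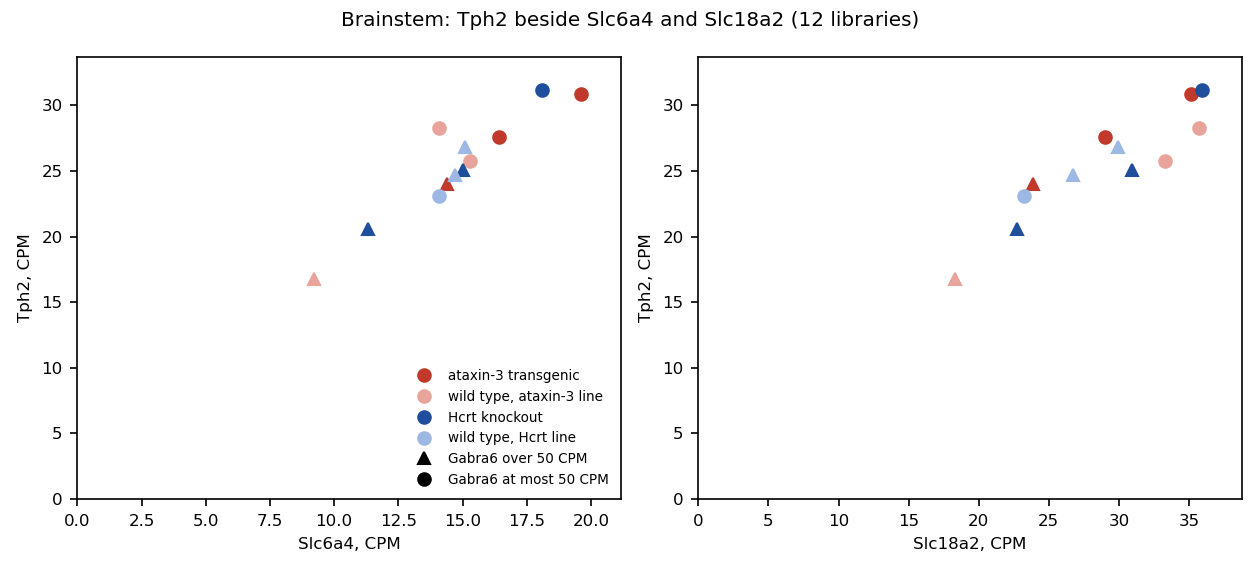
Tph2 (vertical axes, CPM) beside Slc6a4 (left) and Slc18a2 (right, horizontal axes, CPM) in the 12 brainstem libraries, coloured by genotype, with triangles for libraries with Gabra6 above 50 CPM. The library lowest for Tph2, at 16.8 CPM, is the lowest in both plots, the highest, at 31.2 CPM, is the highest for Slc18a2 but not for Slc6a4, and the genotypes are mixed along them.

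Ordered by likeness to the mean z-score of Tph2, Slc6a4 and Fev over these 12 libraries, Gata2 came at place 47 of 16493 genes (r = 0.77), Gata3 at 735, Maob at 1878, Lmx1b at 3313 and Gch1 at 5441; Slc18a2 came at place 13 (r = 0.82) and Ddc at 84. The 10 genes nearest to the mean, members aside, were Chad, Evc, Slc7a4, Fut4, Gm10605, Ccdc87, Fkbp15, Slc16a3, Fam221a and Arrdc2, with r from 0.82 to 0.90. Taking each library as its deviation from its group's mean, the nearest 10 were Flna, Trim6, Col5a2, Myo19, Lama1, Yeats2, Tcea2, Slc18a2, Slc38a6 and Dnhd1, and 0 of the 10 were shared with the first order. Over all 36 libraries, where the tissue sets the order, the nearest included Hoxb3, Hoxa3, Evx1, Hoxaas2, Hoxa2, Hoxb2, Hoxa5, Hoxc4 and Nefh, each with r of at least 0.99. These genes, most of them of the Hox family that marks hindbrain position, came before Gata3 (place 140, r = 0.97), Gata2 (1993), Lmx1b (3586), Slc18a2 (5285), Gch1 (5858), Ddc (6891) and Maob (10084) in that order.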

How the data were processed

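Poly(A) RNA of brainstem, hypothalamus and cortex was sequenced in 36 libraries (per the labels' protocols, a stranded kit). The authors deposited raw counts per gene; cutadapt 1.2.1, TopHat2 2.0.9, HTSeq 0.5.4p3 and GRCm38 are named in the submitters' processing notes, and the strand setting is not given in the sources used here. HTSeq's 5 special lines, 24.7 to 42.0% of each file's counts, were left out. The highest share was in the ataxin-3-line wild-type brainstem replicate 2. Of 38924 identifiers 37607 matched GENCODE M21, which also gave the exon lengths used for CPM per kb. Counts were tested in R 4.3.3 with edgeR 4.0.16 (TMM, filterByExpr, robust quasi-likelihood), one fit of 12 libraries per tissue for the models and one of all 36 for tissues, with Benjamini-Hochberg adjustment over all genes tested and a threshold of 0.05; 95% intervals use the gene's residual degrees of freedom. DESeq2 1.42.0, limma 3.58.1 (voom with quality weights), RLE factors, other filters, only the groups compared, a replicate block and leaving out libraries were alternatives; the cerebellar split as a term was chosen after seeing the data. The fits were tested on simulated data. The members, pathway and marker lists were chosen with earlier results of these data known. Named genes were the members, 5 pathway genes given for their levels, the 3 pathway genes with the smallest p per brainstem and hypothalamus model comparison, marker genes beside a member, and the 10 genes most alike. The nearest and lowest genes in an order were taken only from those with a symbol in GENCODE M21. Replicates differed by more than counting noise.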

Additional observations from a re-analysis of the deposited data

How the results depend on the processing

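No alternative moved a count of members called by over 1.5 times, between wild-type tissues or between models and wild types. Between wild-type brainstem and hypothalamus Lmx1b lost its call, at 0.43 without the libraries holding pituitary or nasal transcripts, which left 7 of 8 members called, and at 0.36 without 1 wild-type library; the cause was not tested. For the uncalled model differences, 33 of 432 values changed sign when 1 library was left out and 6 of 272 under the other settings, and the lowest adjusted p among these 704 values was 0.32 (Slc6a4, transgenic brainstem, with the cerebellar split as a term). With the replicate block, 8, 8 and 6 members were called between the 3 pairs of wild-type tissues and 0 in each of the 6 model comparisons, as without it. Deviations of same-numbered libraries had a correlation over 0.1 in 0 of 36 pairs across tissues and 12 of 54 within tissues. For differently numbered libraries this was 4 of 72 and 22 of 108. Whether a number stands for the same mouse or batch cannot be told from these correlations. Depth limits Slc6a4, Fev and Gata3 outside brainstem, where most libraries held under 10 counts: they were not tested within those tissues, and their intervals in the fit of all 36 libraries were wide.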

Other observations

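Among genes with a symbol, members aside, Erlin1 had the lowest correlation with the mean z-score of Tph2, Slc6a4 and Fev. Erlin1 is an endoplasmic reticulum membrane protein. This held over the 12 brainstem libraries (16493 genes ranked), both on levels (r = -0.93) and on deviations from group means (r = -0.945). Erlin1 was also among the 10 lowest over all 36 libraries (r = -0.99). Zfp763 was the second lowest on levels (r = -0.88) and among the 10 lowest on deviations (r = -0.91). These genes were picked after their values were seen and no test was run.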
